A study of Mus musculus with 6 samples.

Results

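The genes described here mark GABAergic inhibitory interneurons, the local neurons that restrain the excitatory cells of the hippocampus. The list held 35 genes chosen by name for a role in making or packing GABA, in specifying the interneuron lineage in the embryo, or in distinguishing the adult subclasses, out of 36008 genes in the deposited table. All 35 were found by symbol, and all 35 passed the filter on low counts. RNA-seq was performed on the hippocampus of 6 female mice of the B6J strain at 2 weeks of age, 3 wild-type (WT) and 3 Prmt9 knockout (KO). The KO mice carried a whole-body deletion of the Prmt9 exon that had been flanked by loxP sites, made by passing a floxed allele through a germline Cre, and the WT mice were littermates of the same sex. PRMT9 is an arginine methyltransferase of the splicing factor SF3B2, and the comparison asks which transcripts differ in the hippocampus without it. Each library came from 1 mouse, and the mice carried the numbers 1, 2 and 3 in each genotype.

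Interneurons use glutamate decarboxylases to make GABA and a vesicular transporter to load it into synaptic vesicles. Most hippocampal interneurons are born in the medial or the caudal ganglionic eminence (MGE and CGE), embryonic structures whose progenitors depend on Dlx homeobox genes, and they then migrate into the hippocampus. The MGE lineage, specified by Nkx2-1 and Lhx6, gives the parvalbumin and somatostatin subclasses, and the CGE lineage gives the VIP, many CCK and many reelin subclasses. Several markers are not private to interneurons: Cck and Cnr1 are also transcribed in excitatory neurons, Calb2 in mossy cells of the mouse dentate gyrus, and Reln in Cajal-Retzius cells.

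The libraries held 194098391 to 286771677 estimated counts. Prmt9, the targeted gene, stood at 11.8, 15.2 and 14.96 TPM (an abundance scaled to transcript length and library size) in the WT mice and at 3.93, 4.61 and 4.67 TPM in the KO mice, with no overlap (log2 fold change −1.71 ± 0.1 SE, adjusted p = 0.0327, edgeR quasi-likelihood test). The mice numbered 1 stood apart from the other 4 in both genotypes. On the first principal component, which held 67.44% of the variance, WT mouse 1 lay at −109.95 and KO mouse 1 at −30.54, whereas the other 4 lay between 31.3 and 37.56. In WT mouse 1, 37.37% of transcripts were listed at 0, against 22.75% to 24.76% in the other 5 mice. The 5 oligodendrocyte markers, which include the myelin genes Mbp and Mog, summed to 1906 TPM in WT mouse 1 and 957 TPM in KO mouse 1, against 6439 to 9275 TPM in the other 4. Each genotype held 1 such mouse, and the fold changes are given with and without them in the plot of log2 fold changes.

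No interneuron identity gene passed the test between genotypes. Over all 20315 genes tested, 0% were called (adjusted p below 0.01 and fold change above 1.5, edgeR), and 0 of the 35 interneuron genes were called. Prmt9 itself, the deleted gene, was not called either, at an adjusted p of 0.0327 (edgeR). At an unadjusted p below 0.05, 1.24% of all genes and 0 of the 35 passed, and with DESeq2 4 genes of the whole table were called, with 2.19% of genes and again 0 of the 35 under an unadjusted 0.05. The lowest unadjusted p of the 35 was 0.152, for Lamp5, and every adjusted p was 1. The log2 fold changes ran from −0.34 for Nkx2-1 to 0.18 for Nxph1, 18 below 0 and 16 above it, with a median of −0.007 against −0.011 over all genes tested. The precision was limited: the median standard error was 0.2 on the log2 scale, and it reached 0.84 for Cort. TPM values of the 2 genotypes overlapped for all 35 genes, whereas 6.67% of all genes had non-overlapping genotypes, 5.28% with KO above WT and 1.38% with KO below. Between mice of the same number, KO TPM lay below WT TPM in 3 of 3 pairs for 5 of the 35 genes (Npas1, Cck, Npy, Crh and Lamp5), against 8.04% of all genes, and above it in 3 of 3 for Dlx2 and Calb2, against 20.7% of all genes. Correlations between mice did not separate the numbers 2 and 3 as pairs, so these pair counts rest on the labels. In hippocampal tissue, fewer interneurons and less RNA per interneuron cannot be told apart.

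**Figure D1:**
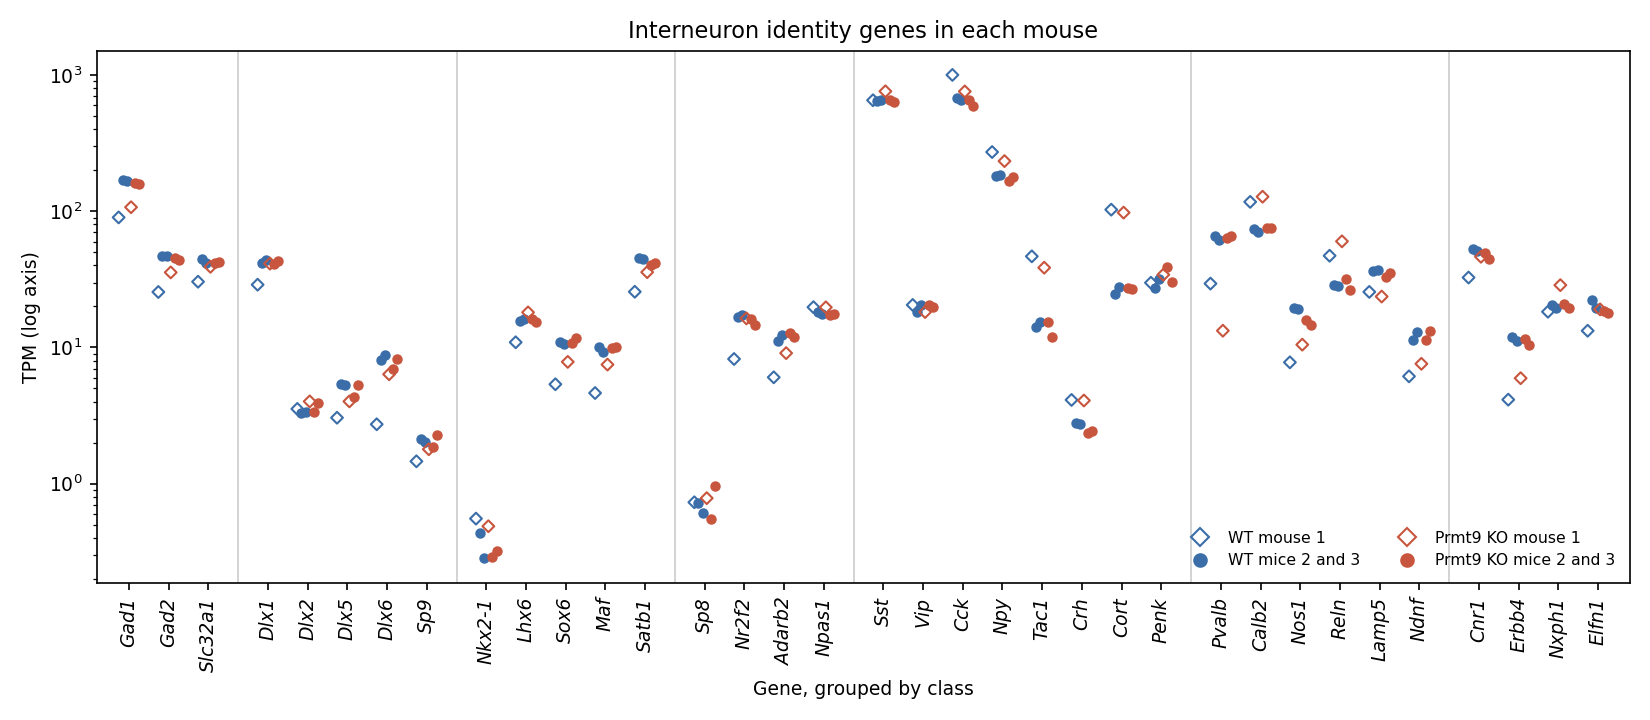
TPM of the 35 interneuron identity genes in each of the 6 mice, on a log axis, grouped by class. Blue marks WT and red Prmt9 KO, open diamonds the mice numbered 1 and filled circles the mice numbered 2 and 3. The 2 genotypes overlap for every gene, and the open diamonds lie away from the circles for genes such as Gad1, Tac1, Cort and Pvalb.

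The mice numbered 1 differed from the other 4 for most of the list, as they did for most genes of the whole table. Both lay below all other 4 mice for 15 of the 35 genes, against 45.8% of all genes, and above all other 4 for 9 of the 35, against 19% of all genes. Among the other 4 mice the highest value exceeded the lowest by a median factor of 1.14, with a maximum of 1.74 for Sp8. These are descriptions of 2 mice against 4 and were not tested.

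GABA synthesis and loading was represented by Gad1 and Gad2, which encode the decarboxylases GAD67 and GAD65, and by Slc32a1, which encodes the vesicular GABA transporter. Gad1 was measured at 90.2, 171 and 167 TPM in WT mice 1, 2 and 3 and at 107, 162 and 159 TPM in KO mice 1, 2 and 3. Gad2 stood at 25.6, 47.2 and 46.8 TPM in WT and at 35.6, 45.1 and 44.1 TPM in KO. Slc32a1 stood at 30.4, 44.6 and 41.6 TPM in WT and at 39.1, 41.7 and 42.6 TPM in KO. In all 3 genes the mice numbered 1 were the 2 lowest of the 6, and the remaining WT and KO mice lay close together. Between genotypes the log2 fold changes were −0.06 ± 0.2 (SE) for Gad1, 0.02 ± 0.15 for Gad2 and 0.02 ± 0.09 for Slc32a1. The summed level of the class was 222 ± 65.5 TPM in WT and 225 ± 37.7 TPM in KO (SD, n = 3 each). Without WT mouse 1 the KO mean differed from the WT mean by −13.1% of it, against 1.7% with all mice. Gad1 supplied 64.5% of that sum in WT. Of the exonic bases of Slc32a1, 24.92% overlap Gm14205 on the opposite strand, a gene not in the deposited gene table, and the strand setting of the quantification is not given in the sources used here.

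Gad1 (ENSMUSG00000070880, chr2:70553072-70602014, GRCm38, plus strand) was quantified as 8 annotated transcripts. Gad1-201, with 17 exons and 3355 bases, encodes full-length GAD67. Gad1-206 is annotated as a processed transcript with no coding sequence: its 16 exons and 2996 bases share most of Gad1-201, but it begins in a first exon of its own at chr2:70566377-70566453 and lacks exon 2, which holds the start codon of Gad1-201. The transcripts Gad1-203, Gad1-205 and Gad1-207 include an additional exon that begins at chr2:70584420 and brings an early stop codon. The exons that separate these forms are printed below from the GENCODE M21 transcripts, because the Gad1 results turn on them; capitals mark the start codon in the first sequence and the stop codon in the third, and the second has none.
Gad1-201, coding part of exon 2, chr2:70563832-70563910: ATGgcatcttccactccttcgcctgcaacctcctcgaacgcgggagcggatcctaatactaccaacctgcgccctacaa
Gad1-206, first exon, chr2:70566377-70566453: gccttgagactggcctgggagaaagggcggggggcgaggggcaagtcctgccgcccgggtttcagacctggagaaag
Gad1-205, coding bases and stop codon of exon 7, chr2:70584420-70584456: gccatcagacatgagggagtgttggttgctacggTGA

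Gad1-201 made up 55.1%, 82.5% and 78.7% of Gad1 TPM in WT mice 1, 2 and 3 and 60.4%, 78.3% and 75.1% in KO mice 1, 2 and 3. Gad1-206 made up 40.1%, 8.01% and 11.7% in WT and 33.0%, 12.9% and 15.9% in KO. The mice numbered 1 of both genotypes thus carried the low Gad1-201 and the high Gad1-206 shares. Gad1-201 stood at 49.7 and 64.7 TPM in those mice and at 119 to 141 TPM in the other 4, while Gad1-206 was 36.1 and 35.3 TPM against 13.7 to 25.3 TPM. The mean shares of Gad1-201 were 72.1% ± 14.8 in WT and 71.3% ± 9.57 in KO, and those of Gad1-206 were 19.9% ± 17.6 and 20.6% ± 10.8 (SD, n = 3 each; exact two-sided permutation test, p = 0.9 for each). Among the mice numbered 2 and 3, the Gad1-206 share was above both WT values in both KO mice.

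The protein-coding Gad1-202 held 3.36%, 5.8% and 5.89% of Gad1 TPM in WT and 2.32%, 5.1% and 4.92% in KO. The genotypes overlapped, but between mice of the same number the share was lower in KO in 3 of 3 pairs, with differences of −1.03, −0.71 and −0.97 percentage points (exact two-sided permutation of signs within pairs, p = 0.25, the smallest that 3 pairs allow). The 3 early-stop transcripts summed to 1.39%, 2.31% and 2.29% in WT and to 2.46%, 2.5% and 2.69% in KO. This was the 1 Gad1 measure whose genotypes did not overlap, 2.0% ± 0.528 against 2.55% ± 0.126 (SD, n = 3 each; exact two-sided permutation test, p = 0.1, the smallest that 3 mice against 3 allow). In the 3 pairs of the same number it was higher in KO by 1.07, 0.18 and 0.41 percentage points (exact permutation within pairs, p = 0.25), and the shares of Gad1-203 and Gad1-208 were also higher in 3 of 3 pairs. With 9 Gad1 shares compared between genotypes without pairing, the Benjamini-Hochberg adjusted value was 0.9 for each. Such non-overlap also occurred for transcripts of Cck, Lamp5, Npas1, Nr2f2, Satb1 and Cnr1, and Cnr1 is given as an example. Cnr1-201 held 85.5%, 78.1% and 76.0% of Cnr1 TPM in WT and 71.6%, 74.2% and 75.2% in KO. Cnr1-202 held 12.5%, 18.1% and 20.5% in WT and 25.7%, 21.4% and 20.9% in KO. Both forms together held most of Cnr1 TPM, so their shares are not independent. Relative transcript use of Cnr1 did not differ between genotypes (edgeR diffSpliceDGE with the Simes test, unadjusted p = 0.775). How often shares of all transcripts fail to overlap is not given here. Most of the early-stop sum came from Gad1-205, at 1.39% to 1.95%, with Gad1-203 at 0% to 0.62% and Gad1-207 at 0% to 0.3%. The remaining forms were minor: Gad1-204 stood at 0% to 1.74% and the retained-intron form Gad1-208 at 0.06% to 0.35%.

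**Figure D2:**
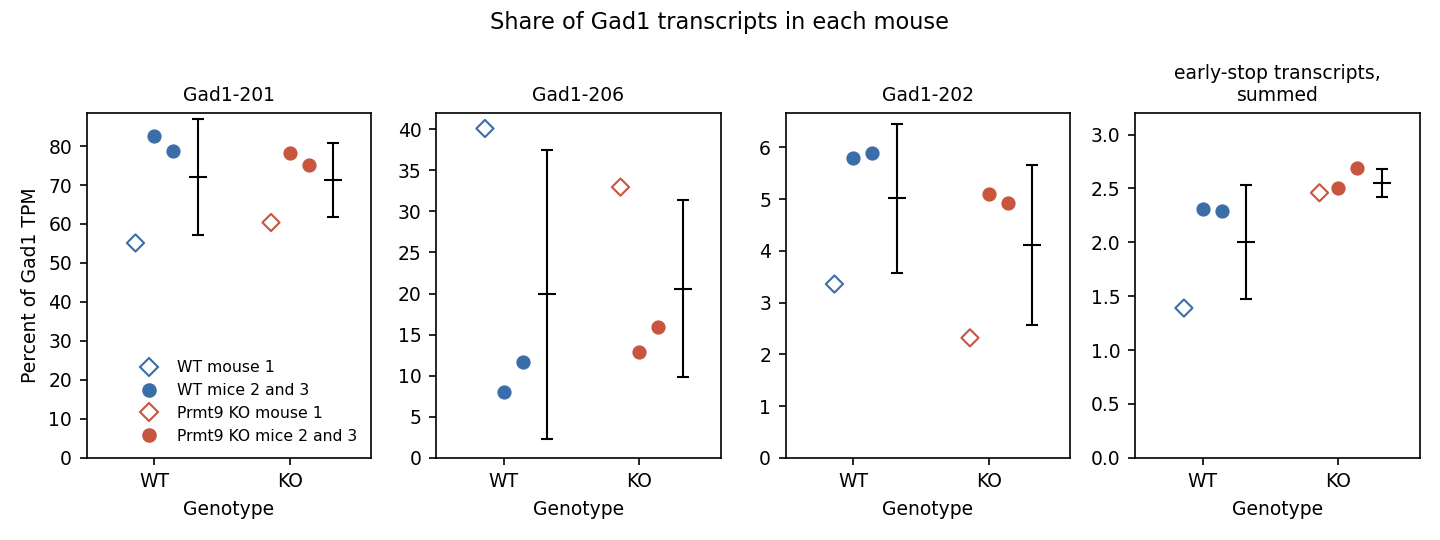
Share of Gad1 TPM held by Gad1-201, Gad1-206, Gad1-202 and the 3 early-stop transcripts together, in percent, for each mouse; horizontal ticks with bars give the mean and SD of 3 mice. The mice numbered 1 (open diamonds) have low Gad1-201 and high Gad1-206 in both genotypes, and the early-stop sum is the 1 of these 4 measures whose genotypes do not overlap, at 1.39% to 2.31% against 2.46% to 2.69%.

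A test of relative transcript use across the whole table (edgeR diffSpliceDGE with the Simes test) called 0.17% of 13560 genes at an adjusted p below 0.01 and 0 of the 29 interneuron genes it could test. At an unadjusted p below 0.05, 1.73% of all genes and 0 of the 29 passed, and the lowest unadjusted p among the 29 was 0.129, for Satb1. Without WT mouse 3, 1 interneuron gene was called, Dlx6, against 0.225% of all genes. Dlx6-203 stood at 0.269 and 0.953 TPM in WT mice 1 and 2 and at 0 TPM in WT mouse 3 and every KO mouse. This transcript was not among those tested with all mice, and its part in the call was not tested. At an unadjusted p below 0.05 Dlx6 also passed without each KO mouse in turn. Gad1 passed it without WT mouse 1 or KO mouse 2, and Reln without KO mouse 1. In these settings 2.59% to 5.89% of all genes passed it. Without both mice numbered 1, Gad1 had an adjusted p of 0.0308 (unadjusted 0.000833), short of the threshold of 0.01, and it was the 1 interneuron gene below an unadjusted 0.05, against 7.9% of all genes. Of 75661 transcripts tested one by one, 0% were called, and 0 of the 122 interneuron transcripts were called. At an unadjusted p below 0.05, 1.61% of all transcripts passed and 1 of the 122, the protein-coding Satb1-204 (log2 fold change −1.70 ± 0.695 SE, unadjusted p = 0.0497, adjusted p = 1). Without both mice numbered 1, 12 of 126 interneuron transcripts passed it, against 9.72% of all transcripts. Satb1-204 held 6.0% of Satb1 TPM in WT mouse 1 and 0.4% to 1.6% in the other 5 mice.

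The pan-interneuron regulators comprised the homeobox genes Dlx1, Dlx2, Dlx5 and Dlx6, which drive the GABAergic programme in ganglionic eminence progenitors, and the zinc-finger gene Sp9. By gene total Dlx1 was the most abundant, with 28.9, 41.98 and 43.7 TPM in WT and 41.3, 41.1 and 43.4 TPM in KO. Most of the Dlx1 TPM, 75.1% to 83.2%, was assigned to non-coding retained-intron transcripts. The rank of Dlx1 is therefore one of gene totals and not of coding transcripts. Dlx6 stood at 2.73, 8.12 and 8.74 TPM in WT and at 6.36, 6.91 and 8.3 TPM in KO. WT mouse 1 was the low value in both genes, and for Dlx6 it lay more than 1.5 times below each of the other 5. Their genotypes differed by less than the standard error, with log2 fold changes of 0.08 ± 0.12 (SE) for Dlx1 and 0.09 ± 0.33 for Dlx6. Dlx2, Dlx5 and Sp9 were lower, with means over the 6 mice of 3.59, 4.56 and 1.92 TPM, and had log2 fold changes of 0.01, −0.06 and −0.04. Of the Dlx6 sequence, 7.51% of 31-base words also occur in transcripts of other genes, and for Sp9 7.21% do, the highest shares of the list.

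The MGE lineage was followed through Nkx2-1, its founding homeobox gene, Lhx6, which Nkx2-1 activates, and the later regulators Sox6, Maf and Satb1. Satb1, which is also transcribed outside interneurons, stood at 25.6, 45.6 and 44.9 TPM in WT and at 35.7, 40.6 and 41.9 TPM in KO. Lhx6 stood at 10.9, 15.6 and 16.05 TPM in WT and at 18.1, 16.2 and 15.4 TPM in KO. Maf stood at 4.63, 10.2 and 9.28 TPM in WT and at 7.49, 9.93 and 10.1 TPM in KO. WT mouse 1 was the lowest of the 6 mice for all 3, and for Maf it lay more than 1.5 times below each of the others. In Lhx6, as in Nxph1, the mice numbered 1 parted: WT mouse 1 was the lowest and KO mouse 1 the highest of the 6. The log2 fold change of Lhx6 was 0.17 ± 0.13 (SE), falling to 0.01 ± 0.04 without the mice numbered 1. Sox6 had a mean of 9.52 TPM and a log2 fold change of 0.08. Nkx2-1, which is switched off in most interneurons bound for the cortex and hippocampus, was near the floor at 0.283 to 0.554 TPM, the lowest mean of the list.

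The CGE lineage was followed through Sp8, Nr2f2 (COUP-TFII), Adarb2 and Npas1. Npas1, a basic helix-loop-helix factor, was even across the mice at 19.8, 18.2 and 17.8 TPM in WT and 19.7, 17.4 and 17.5 TPM in KO. Nr2f2 stood at 8.23, 16.7 and 17.3 TPM in WT and at 16.4, 16.1 and 14.7 TPM in KO. Adarb2 stood at 6.04, 11.2 and 12.2 TPM in WT and at 9.09, 12.7 and 11.99 TPM in KO. For Nr2f2 and Adarb2 WT mouse 1 again lay more than 1.5 times below each of the other 5. Their log2 fold changes were −0.13 ± 0.18 (SE) for Npas1, 0.11 ± 0.18 for Nr2f2 and 0.15 ± 0.21 for Adarb2. Sp8 was scarce, with a mean of 0.728 TPM and a range of 0.555 to 0.967 TPM. Most of the Adarb2 TPM, 61.7% to 78.6%, was assigned to Adarb2-203, a transcript annotated as a target of nonsense-mediated decay.

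The neuropeptide class had the highest summed level, and Cck and Sst led the list. Cck stood at 1003, 684 and 658 TPM in WT and at 758, 651 and 598 TPM in KO. Sst, the marker of dendrite-targeting MGE cells, stood at 654, 644 and 652 TPM in WT and at 760.3, 658 and 638 TPM in KO. Neither passed the test, with log2 fold changes of −0.32 ± 0.28 (SE) for Cck and 0.01 ± 0.16 for Sst. Npy, which marks ivy and neurogliaform cells among others, ranged from 168 to 272 TPM with a log2 fold change of −0.22 ± 0.29. Vip, the marker of interneuron-selective CGE cells, was even at 18.2 to 20.5 TPM, and Penk, the enkephalin precursor, ranged from 27.2 to 38.7 TPM. Crh, which encodes corticotropin-releasing hormone, was the scarcest peptide at 2.36 to 4.12 TPM. The log2 fold changes of Vip, Penk and Crh were −0.11, 0.15 and −0.22. The class summed to 1774 ± 310.0 TPM in WT and 1677 ± 235 TPM in KO (SD, n = 3 each). The difference was −5.5% of the WT mean, and it was 5.1% without WT mouse 1.

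Cort and Tac1 were higher in both mice numbered 1 than in the other 4; both were singled out after their values were seen. Cort, the cortistatin gene of a subset of somatostatin and parvalbumin cells, stood at 103, 24.7 and 27.9 TPM in WT and at 97.8, 27.2 and 26.8 TPM in KO. Tac1, the substance P precursor, stood at 46.7, 14.1 and 15.5 TPM in WT and at 38.5, 15.3 and 11.9 TPM in KO. In the mice numbered 1 the mean of Cort was 3.76 times and that of Tac1 3.0 times the mean of the other 4. Sst, by contrast, was 1.09 times that mean. Cort and Sst are related genes with similar stretches at or near the end of their coding sequences, and these are printed here to show how much sequence the genes have in common, with capitals at the bases that differ.
Sst, end of the coding sequence before the stop codon, chr16:23889732-23889773, minus strand: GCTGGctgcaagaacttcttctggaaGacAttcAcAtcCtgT
Cort, near the end of the coding sequence, chr4:149125270-149125311, minus strand: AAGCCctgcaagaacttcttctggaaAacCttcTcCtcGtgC
The Cort stretch is followed by 3 further coding bases. Of these 42 bases 31 are identical, but the longest identical run is 21 bases, and neither gene shared a 31-base word with any transcript of another gene in the files.

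The subclass markers without a peptide product moved in opposite directions in the mice numbered 1. Calb2, which encodes calretinin, stood at 117, 74.6 and 70.1 TPM in WT and at 128, 75.2 and 75.0 TPM in KO. Pvalb, which encodes the parvalbumin of fast-spiking basket and axo-axonic cells, stood at 29.4, 66.1 and 61.3 TPM in WT and at 13.3, 63.8 and 65.7 TPM in KO. Calb2 was thus highest and Pvalb lowest in the mice numbered 1 of both genotypes, and the other 4 mice lay within 70.1 to 75.2 TPM for Calb2 and 61.3 to 66.1 TPM for Pvalb. KO mouse 1 was more than 1.5 times below every other mouse for Pvalb. The log2 fold changes between genotypes were −0.02 ± 0.39 (SE) for Calb2 and −0.19 ± 0.56 for Pvalb, and without the mice numbered 1 they were 0.06 ± 0.04 and 0.03 ± 0.05. The class sum hid these opposite shifts, at 233 ± 3.57 TPM in WT and 235 ± 7.2 TPM in KO (SD, n = 3 each).

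Nos1, the neuronal nitric oxide synthase of ivy, neurogliaform and some projecting cells, was singled out after its values were seen. It stood at 7.78, 19.3 and 19.2 TPM in WT and at 10.5, 15.9 and 14.7 TPM in KO. Within the mice numbered 2 and 3 the KO values were below the WT values, whereas KO mouse 1 was above WT mouse 1. With all mice the log2 fold change was −0.21 ± 0.27 (SE), and without the mice numbered 1 it was −0.35 ± 0.05 (edgeR, unadjusted p = 0.000388, adjusted p = 0.105). This was the lowest adjusted p of any interneuron gene in the tests of gene level, over all settings run. Lamp5, a marker of neurogliaform cells, ranged from 23.7 to 37.3 TPM and had a log2 fold change of −0.23 ± 0.14. Ndnf, another neurogliaform marker, ranged from 6.14 to 13.2 TPM, and its log2 fold change was 0.03 ± 0.14.

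Reln, which encodes the secreted glycoprotein reelin, was 1.85 times as high in the mice numbered 1 as in the other 4, and its transcripts did not share in this evenly. The coding transcript Reln-207, of 11699 bases, stood at 15.1, 16.04 and 15.3 TPM in WT and at 20.4, 18.2 and 14.96 TPM in KO. Reln-205, a processed transcript of 891 bases, stood at 16.4, 1.06 and 0.921 TPM in WT and at 14.2, 1.04 and 0.87 TPM in KO. The higher gene total in the mice numbered 1 therefore came largely from Reln-205 and from the retained-intron form Reln-203, at 11.9 and 16.9 TPM against 4.51 to 5.63 TPM. In Ndnf the reverse was seen. The coding transcript Ndnf-201 was even at 5.25 to 6.73 TPM in all 6 mice, and the retained-intron form Ndnf-202, of 527 bases, stood at 0.891 and 0.862 TPM in the mice numbered 1 against 5.71 to 7.63 TPM in the other 4. These transcripts were chosen after their values were seen. The genotypes overlapped in all 5 of them.

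The receptors and synaptic organisers were Cnr1, the cannabinoid receptor of CCK basket cells, Erbb4, the neuregulin receptor of parvalbumin cells, Nxph1, a secreted neurexin ligand, and Elfn1, an adhesion protein that recruits a metabotropic glutamate receptor to synapses onto somatostatin cells. Cnr1 stood at 32.6, 52.5 and 51.3 TPM in WT and at 46.4, 49.8 and 44.5 TPM in KO. Nxph1 stood at 18.3, 20.4 and 19.6 TPM in WT and at 28.7, 21.0 and 19.4 TPM in KO. The genotypes overlapped in both, and the highest Nxph1 value was that of KO mouse 1. The log2 fold changes were −0.01 ± 0.12 (SE) for Cnr1 and 0.18 ± 0.21 for Nxph1, falling to 0.01 ± 0.05 for Nxph1 without the mice numbered 1. Erbb4, at 4.14 and 5.95 TPM in the mice numbered 1 and 10.5 to 11.9 TPM in the other 4, had a log2 fold change of −0.01 ± 0.26, and Elfn1, at 13.3 to 22.3 TPM, one of 0.0 ± 0.13.

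**Figure D3:**
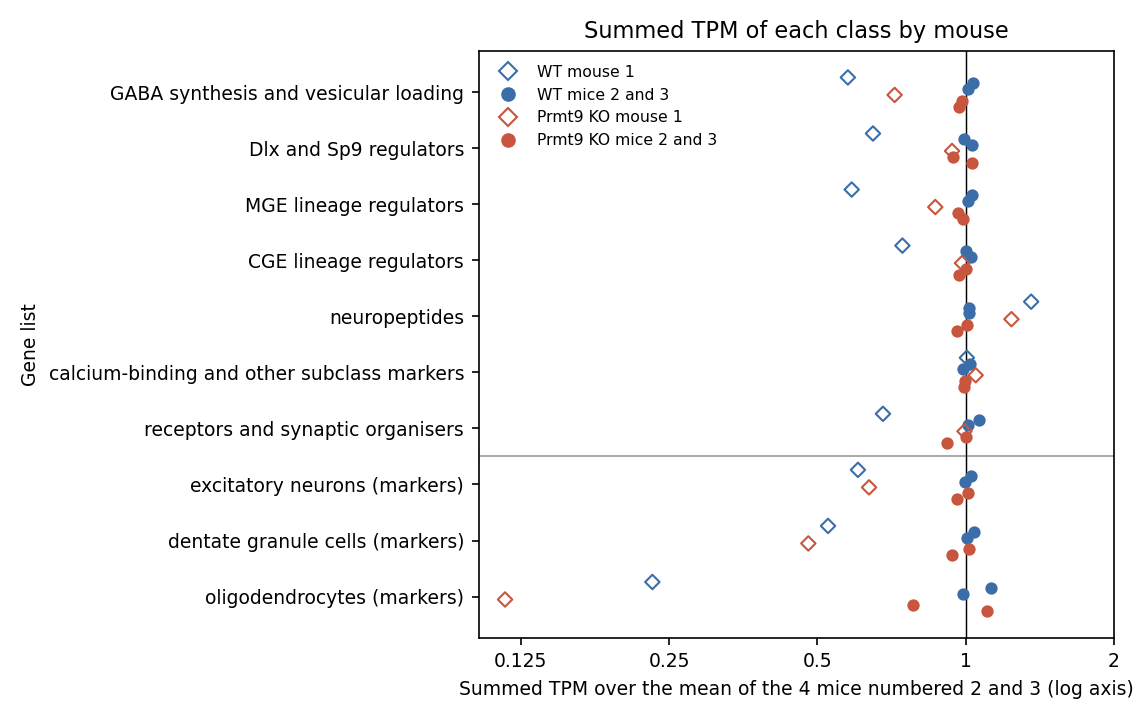
Summed TPM of each interneuron class and of 3 marker lists in each mouse, divided by the mean of the 4 mice numbered 2 and 3, on a log axis; colours and symbols are as for the single genes. The GABA class and the excitatory, dentate granule and oligodendrocyte markers are low in both mice numbered 1, and the neuropeptides are high in both.

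The other regulator and receptor classes gave the same picture. The Dlx and Sp9 genes summed to 54.6 ± 12.9 TPM in WT and 59.4 ± 3.22 TPM in KO, the MGE regulators to 70.3 ± 20.1 and 75.6 ± 5.21 TPM, the CGE regulators to 43.2 ± 7.3 and 46.0 ± 0.803 TPM, and the receptors and organisers to 92.4 ± 21.0 and 97.8 ± 4.67 TPM (SD, n = 3 each). In each of these 4 classes WT mouse 1 had the lowest sum of the 6 mice, and KO mouse 1 lay nearer to the rest. The WT spread therefore exceeded the KO spread in all 4. The KO means differed from the WT means by 8.8%, 7.5%, 6.5% and 5.8% of the WT mean in that order, and without WT mouse 1 the differences were −4.3%, −7.7%, −3.0% and −6.4%.

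Markers of some other cell types also differed in the mice numbered 1. All 5 oligodendrocyte markers and all 6 dentate granule markers were lower in both than in the other 4 mice, against 45.8% of all genes. Their summed levels were 0.17 and 0.50 times those of the others. Of 7 excitatory neuron markers 4 were lower in both, near that share, and Slc17a6 was higher in both. The 7 markers summed to 0.62 times the level of the others, largely from Camk2a and Slc17a7. Choroid plexus markers did not follow the mouse numbers. They summed to 7271 TPM in WT mouse 1, to 868 TPM in KO mouse 1 and to 612 to 3348 TPM in the other 4. No gene of the 10 marker lists was called between genotypes, and none was listed at 0 in all mice. Transcript length moved with the mice as well. For main transcripts of at most 1000 bases, the median log2 TPM ratio of the mice numbered 1 over the others was 0.08, whereas it was −0.23 between 2000 and 4000 bases, −0.47 between 4000 and 8000 bases and −0.65 above 8000 bases. The interneuron genes had medians of 0.29, −0.28, −0.38 and −0.84 in the same bins, from 6, 10, 6 and 5 genes. Genes far from these medians included Pvalb and Reln. Pvalb had a short main transcript of 977 bases and a log2 ratio of −1.59. Reln had a long one and 0.89, but its excess lay largely in Reln-205, of 891 bases, and in Reln-203. The Ndnf ratio of −0.84 lay in Ndnf-202, of 527 bases, while its main transcript of 10101 bases was even. Main transcript length thus does not describe the forms that moved in Reln and Ndnf. The part of cell composition and of transcript length in these values was not tested.

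**Figure D4:**
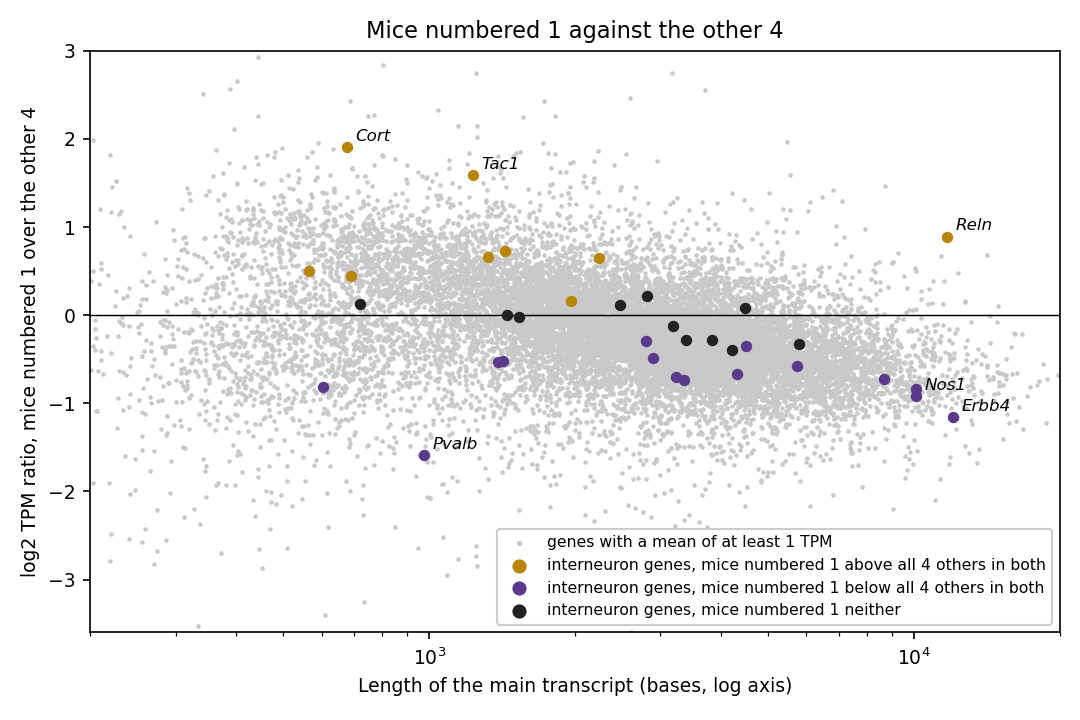
Log2 ratio of mean TPM in the mice numbered 1 over the other 4 mice against the length of each gene's main transcript, in bases on a log axis. Grey dots are genes with a mean of at least 1 TPM, of which a few lie outside the plotted range; coloured dots are the 35 interneuron genes. Most long genes lie below 0, but Reln lies above it. Cort and Tac1 lie highest among the interneuron genes and Pvalb lowest.

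Without both mice numbered 1, the median standard error of the interneuron genes shrank from 0.2 to 0.05, and 16.4% of all genes passed an unadjusted p of 0.05. Of the 35 interneuron genes 6 passed it, all lower in KO, and 0 were called. Beside Nos1 these were Satb1 (log2 fold change −0.17, adjusted p = 0.134), Lamp5 (−0.16, adjusted p = 0.16), Nr2f2 (−0.15, adjusted p = 0.223), Elfn1 (−0.15, adjusted p = 0.255) and Cnr1 (−0.14, adjusted p = 0.297; edgeR). KO TPM lay below WT TPM in both remaining mice for 13 of the 35 genes, against 24.7% of all genes, and above it for 1, Calb2, against 23.6%. The 13 included Gad1, Gad2, Cck and Npy, whose log2 fold changes were −0.07, −0.06, −0.10 and −0.08. The replicate number as a block left 1 of the 35 below an unadjusted 0.05, Lamp5 (log2 fold change −0.23 ± 0.07 SE, adjusted p = 0.79), against 5.75% of all genes. A term for the mice numbered 1 left 3, Lamp5, Cck and Npy (adjusted p = 0.4, 0.501 and 0.496), against 9.74%.

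**Figure D5:**
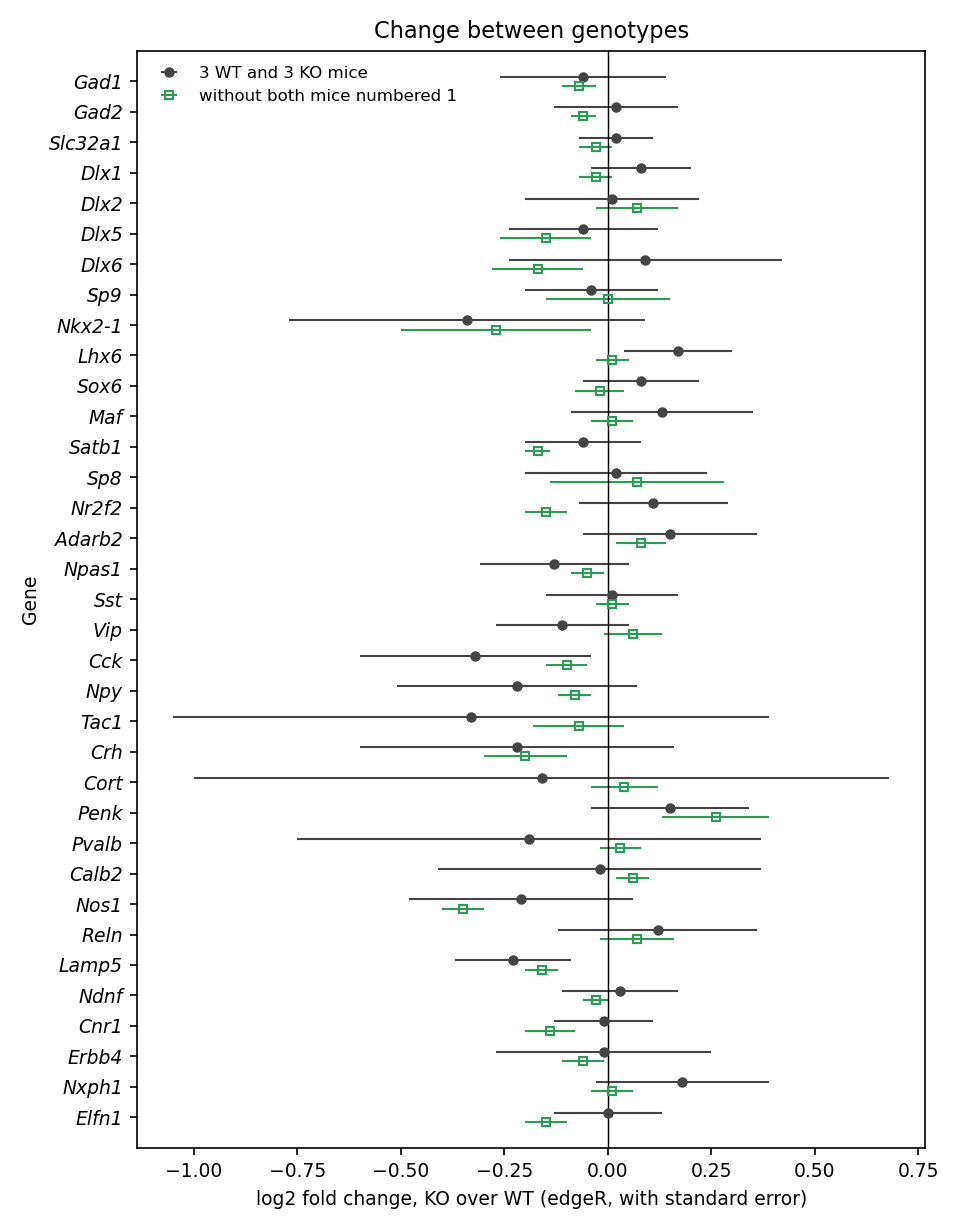
Log2 fold change of each interneuron gene between Prmt9 KO and WT from edgeR, with its standard error, for all 6 mice (filled circles) and without both mice numbered 1 (open squares). All circles lie between −0.34 and 0.18, and the bars of the open squares are shorter for most genes.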

How the data were processed

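RNA from the hippocampus of single mice was sequenced from stranded poly(A) libraries. The authors deposited, for each mouse, kallisto estimated counts and TPM for 118783 transcripts and a gene table of TPM summed with tximport. The submitters' processing notes name kallisto 0.46.0 and STAR 2.7.1a, the study's methods another kallisto version, and the transcript set is not given in the sources used here. Transcripts were matched by identifier to GENCODE M21 (GRCm38), where 116622 matched. The unmatched ones held 0.7761% to 0.8557% of TPM. Gene TPM is the deposited value. It agreed within 0.001 TPM with summed transcripts for 35588 of 35856 genes. A TPM value is scaled to transcript length and to the library, so a large shift in 1 cell type moves the values of all others.

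Estimated counts were summed per gene, rounded to whole numbers and tested with edgeR 4.0.16 (quasi-likelihood test, TMM, filterByExpr) in R 4.3.3 over all genes, with Benjamini-Hochberg adjustment. A standard error is the log2 fold change divided by the square root of F. Calls took the cut-offs of the study's methods: 0.01 for the adjusted p and 1.5 for the fold change. DESeq2 1.42.0 and limma 3.58.1, on log2(TPM + 1) and log2(TPM + 0.1), were alternatives, as were other filters and scalings, a replicate block, a term for the mice numbered 1, and leaving out mice. A permutation within pairs for the Gad1 shares was added after seeing the data. Transcript use was tested with diffSpliceDGE. On simulated data the gene and transcript tests recovered planted changes with few false calls where the spread was small. At the spread of these mice the gene test recovered most of the larger planted changes and none of the smaller. Both sizes exceeded the fold change cut-off of 1.5. At that spread the transcript and usage tests recovered few or none. The usage test also called genes with no planted change. Python 3.11.15 was used for the shares and permutation tests.

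Deviations from the genotype mean correlated at 0.553, 0.415 and 0.383 between mice of the same number, and since each exceeds 0.1 the number was taken to pair mice. WT mouse 2 correlated as well with KO mouse 3 (0.417), and WT mouse 3 as well with KO mouse 2 (0.394). The correlations thus set the mice numbered 1 apart but did not separate the numbers 2 and 3 as pairs. No source gives the numbers a meaning. Mice of a genotype differed beyond counting noise.

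The genes, classes and lists were chosen with earlier results of these data known. All 35 genes are named. Values for each mouse are given for the GABA class, the 2 most abundant genes of each class, genes with 1 mouse over 1.5 times from the rest, and genes singled out where stated. The alignments to the genome were not analysed here. A marker gene of the lists is not reported here.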

Additional observations from a re-analysis of the deposited data

How the results depend on the processing

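No interneuron gene was called between genotypes in any setting run: with edgeR or DESeq2, with other size factors, with other filters, with the replicate block, with the term for the mice numbered 1, with limma, without each mouse in turn, or without both mice numbered 1. No interneuron transcript was called in the settings run for transcripts, which were edgeR with all mice, the replicate block, the term for the mice numbered 1, a minimum of 10 counts in every sample, leaving out each mouse, and leaving out both mice numbered 1. The count of genes called for transcript use was 0 in all settings but 1: without WT replicate 3 it was 1 (range 0 to 1), Dlx6, against 0.225% of all genes. Dlx6-203, detected only in WT mice 1 and 2, was not among the transcripts tested with all mice. At an unadjusted p below 0.05 the settings passed 0.679% to 16.4% of all genes, and at most 6 of the 35 interneuron genes.

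The direction of small fold changes depended on the setting, and the cause was not tested. Among 315 single fold changes with all mice or without both mice numbered 1, 29 changed sign. With limma on log2(TPM + 1) the log2 fold change was 0.03 for Gad1, 0.02 for Dlx5, 0.06 for Sp9, 0.07 for Satb1, 0.08 for Calb2, 0.07 for Cnr1 and 0.10 for Erbb4, and on log2(TPM + 0.1) it was 0.03, 0.03, 0.09, 0.07, 0.08, 0.07 and 0.12 for the same genes. Those 2 fits moved the median of all genes to 0.042 and 0.066, and that of the interneuron genes to 0.072 and 0.078. With the replicate block, and with the term for the mice numbered 1, Calb2 and Erbb4 each had 0.01. The replicate block changed no call. Without both mice numbered 1 the values were −0.06 for Gad2, −0.03 for Slc32a1, −0.03 for Dlx1, −0.17 for Dlx6, −0.02 for Sox6, −0.15 for Nr2f2, 0.06 for Vip, 0.04 for Cort, 0.03 for Pvalb, 0.06 for Calb2 and −0.03 for Ndnf. The differences of the class sums, in percent of the WT mean, also moved. With normalized counts (CPM) in place of TPM they were −1.5% for the GABA class against 1.7%, 4.4% for the Dlx and Sp9 genes against 8.8%, 1.6% for the MGE regulators against 7.5%, 3.9% for the CGE regulators against 6.5%, −10.1% for the neuropeptides against −5.5%, −2.1% for the calcium-binding and other subclass markers against 0.7%, and 0.9% for the receptors and organisers against 5.8%. Without both mice numbered 1 they were −4.7%, −2.7%, −4.1%, −2.9%, −3.3%, −1.0% and −7.5% in that order. Without WT mouse 1 they were −13.1%, −4.3%, −7.7%, −3.0%, 5.1%, 0.8% and −6.4%. The pairing within Gad1 shares, chosen after seeing the data, gave exact permutation p-values of 0.25 or more for all shares and called none.

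Leaving out each mouse in turn changed the sign of at least 1 fit for 30 genes, and no such value passed the threshold. The log2 fold changes then ran for Gad1 from −0.21 to 0.09, Gad2 −0.11 to 0.11, Slc32a1 −0.01 to 0.08, Dlx1 −0.01 to 0.14, Dlx2 −0.12 to 0.21, Dlx5 −0.18 to 0.02, Dlx6 −0.20 to 0.31, Sp9 −0.14 to 0.06, Nkx2-1 −0.68 to 0.08, Sox6 −0.04 to 0.19, Maf −0.07 to 0.29, Satb1 −0.18 to 0.02, Sp8 −0.09 to 0.17, Nr2f2 −0.03 to 0.20 and Adarb2 −0.02 to 0.29. They ran for Npas1 from −0.24 to 0.06, Sst −0.11 to 0.14, Vip −0.21 to 0.06, Cck −0.48 to 0.05, Npy −0.42 to 0.13, Tac1 −1.06 to 0.68, Crh −0.58 to 0.17, Cort −1.15 to 1.03, Pvalb −0.47 to 0.24, Calb2 −0.38 to 0.43, Reln −0.11 to 0.31, Ndnf −0.10 to 0.11, Cnr1 −0.09 to 0.05, Erbb4 −0.22 to 0.16 and Nxph1 −0.07 to 0.32. The difference in the Gad1-201 share ran from −9.31 to 4.62 percentage points, that of Gad1-206 from −5.51 to 10.75 and that of Gad1-205 from −0.01 to 0.25. With 3 mice against 3 and 1 divergent mouse in each genotype, differences of the size of these standard errors were not detectable, and larger ones could also be missed. On simulated data with the spread of these mice, the gene test recovered none of the smaller planted changes, which exceeded the fold change cut-off of 1.5. With all mice Prmt9 also missed the call threshold in edgeR, at a log2 fold change of −1.71 ± 0.1 SE.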

Other observations

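Genes that act around the interneuron list were followed in 3 further lists, and none of their members was called or passed an unadjusted p of 0.05 (edgeR), against 1.24% of all genes. The 10 genes of GABA handling and the inhibitory postsynapse, which take up or degrade GABA, anchor its receptors or form the GABA-B receptor, had a median log2 fold change of 0.03 and summed to 1242 ± 301 TPM in WT and 1263 ± 101 TPM in KO (SD, n = 3 each). The smallest unadjusted p in this list was 0.338, for the GABA-B subunit Gabbr1 (log2 fold change −0.13), followed by the postsynaptic adhesion gene Nlgn2 (−0.09) and Aldh5a1, an enzyme of GABA breakdown (0.08). Slc6a11, a GABA transporter, stood at 73.1, 86.98 and 86.3 TPM in WT and at 96.6, 87.3 and 90.3 TPM in KO. Its genotypes did not overlap, as for 5.28% of all genes with KO above WT, and it did not pass the test (log2 fold change 0.08 ± 0.12 SE, unadjusted p = 0.497, adjusted p = 1; edgeR). Of the 10 genes 7 were lower in both mice numbered 1 than in the other 4, against 45.8% of all genes.

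The 16 further interneuron genes had a median log2 fold change of −0.01. Pthlh, which encodes a parathyroid hormone-like peptide of some parvalbumin cells, stood at 2.92, 2.22 and 2.49 TPM in WT and at 1.91, 2.1 and 1.84 TPM in KO. Tac2, the neurokinin B precursor, stood at 15.8, 14.3 and 14.97 TPM in WT and at 19.6, 18.6 and 17.1 TPM in KO. The 2 genotypes did not overlap in these 2 genes, as was the case for 6.67% of all genes, and neither passed the test (log2 fold change −0.38 ± 0.21 SE and 0.22 ± 0.19, unadjusted p = 0.12 and 0.288). The third gene named from this list, the potassium channel subunit Kcns3, had a log2 fold change of −0.20.

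The 25 receptors and partners of the interneuron genes had a median log2 fold change of −0.02. Of these, 16 were lower in both mice numbered 1, against 45.8% of all genes. The smallest unadjusted p, 0.117, belonged to Dagla, which makes the endocannabinoid that acts on Cnr1 (log2 fold change −0.18). Nrg1, a ligand of Erbb4, had 0.25 and Tacr3, the neurokinin B receptor, 0.42.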
